A study of Mus musculus with 22 samples.

Results

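The miR-202 hairpin gives 2 mature miRNAs, mmu-miR-202-5p and mmu-miR-202-3p, which are described here by their levels, their ratio and their change in round spermatids (RS) of mice without the RNA helicase GRTH/DDX25 or without its phosphorylated form. The members were the rows of the count table with these names, and both were found, as 2 of 1966 mature miRNA names. RS are the haploid germ cells that follow meiosis, and they were isolated by sedimentation through an albumin gradient from testes of mice aged 75 to 85 days. Batch 1 held 5 wild-type (WT) and 5 GRTH knock-out (KO) libraries, and batch 2 held 6 WT and 6 GRTH knock-in (KI) libraries, 22 in all. KO mice lack GRTH. KI mice carry a human GRTH gene with a missense mutation, keep the non-phosphorylated protein and lack the phosphorylated one. Mice of both mutant lines are sterile, with RS that do not elongate. The labels do not say whether libraries of one group came from separate animals, so p-values measure the spread between these libraries, part of which may be technical.

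A miRNA hairpin is cut from a longer transcript and then trimmed by Dicer to a duplex, whose strands are the 5p and 3p arms. The strand that an Argonaute protein keeps finds its target mRNAs mainly through the seed, the bases just after the 5′ end, so the arms of one hairpin are expected to find different targets. miR-202 is known as a hairpin of the gonads, described in Sertoli cells, which nurse the germ cells, in male germ cells and in the ovary.

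Both mature sequences and the hairpin are shown because the results turn on these arms and on the seed that the 3p arm nearly shares with let-7. All were taken from RefSeq on GRCm38.p6, and both mature sequences matched the table by name and position. In the mature miRNAs the capitals mark the seed, bases 2 to 8.
miR-202-5p: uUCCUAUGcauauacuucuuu
miR-202-3p: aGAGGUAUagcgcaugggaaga
let-7a-5p: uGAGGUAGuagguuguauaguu
In the hairpin the capitals mark the 5p arm first and the 3p arm after the loop.
Mir202: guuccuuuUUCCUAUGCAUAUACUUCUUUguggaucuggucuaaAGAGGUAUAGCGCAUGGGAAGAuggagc

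The hairpin has 72 bases and lies on the minus strand of chromosome 7 (chr7:139957689-139957760, GRCm38.p6). The 5p arm, of 21 bases, is at 139957732 to 139957752, and the 3p arm, of 22 bases, is at 139957695 to 139957716. A loop of 15 bases separates them. The arms differ in composition, with 6 G or C bases of 21 in miR-202-5p and 11 of 22 in miR-202-3p. In the GENCODE vM21 annotation the hairpin sits inside an exon of Gm2044, a lincRNA on the same strand with 1 transcript and 2 exons. It also lies in an intron of Gm16201, a processed transcript on the other strand. The nearest protein-coding gene is Utf1, 12577 bases away on the other strand. Another annotated hairpin, mmu-mir-7686, lies 67 bases from miR-202 on the same strand and inside the same lincRNA. Both of its arms had 0 counts in every library.

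No other of 1679 mature mouse miRNAs in RefSeq had the seed of miR-202-5p, either over bases 2 to 8 or over bases 2 to 7. The seed of miR-202-3p over bases 2 to 7 was that of 12 other miRNAs, which were miR-1961 and all 11 names of the let-7 list, including miR-98-5p. Over bases 2 to 8 only mmu-let-7j shared it. The other 10 let-7 names differed from miR-202-3p by U8G, counted from 1 at the 5′ end, with the base of miR-202-3p first.

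Library totals ranged from 559957 to 3239357 counts and were lower in batch 1 than in batch 2. Names with at least 1 count numbered 590 to 745 per library. A count of 3, taken as the floor of detection, was worth 0.926 to 5.36 CPM, which are counts brought to one library total. Replicates differed by more than sampling noise, with a chi-square per degree of freedom of at least 7.28, so no library was counted as one deposited more than once. This does not show that libraries came from separate animals. All 7 miRNAs of a list for meiotic and post-meiotic germ cells (miR-34b, miR-34c and miR-449) were detected, with summed levels of 170100 to 238700 CPM (batch 1) or 338360 to 420230 CPM (batch 2). miRNAs of other cell types were also detected. A list for blood and immune cells summed to 2989 to 6268 CPM, and one for smooth muscle, vessel and stroma to 773 to 4950 CPM.

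CPM values of the arms were scaled by TMM (the trimmed mean of M-values) over all 22 libraries. Counts of miR-202-5p in WT of batch 1 were 69, 46, 139, 124 and 81 in replicates 1 to 5, which are 69.8, 44.6, 128 (replicate 3), 99.9 and 74.5 CPM. In KO the counts of miR-202-5p were 26, 74, 60, 40 and 20, or 30.0, 65.6, 67.0, 57.4 and 28.3 CPM. The highest WT libraries were replicates 3 and 4, the lowest KO libraries were replicates 1 and 5, and the groups overlapped because WT replicate 2 lay among the KO libraries.

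In batch 2 the level of miR-202-5p in WT was 83.1 CPM at the lowest, 131 at the median and 157 at the highest, from 182 to 378 counts. In KI it was 61.4, 79.2 and 90.6 CPM, from 120 to 251 counts. Of the WT libraries only replicate 6, at 83.1 CPM, lay within the KI range, and the other 5 lay above every KI library.

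Counts of miR-202-3p in WT of batch 1 were 25, 25, 72, 78 and 39, or 25.3, 24.3, 66.5, 62.8 and 35.9 CPM. In KO its counts were 13, 33, 38, 25 and 18, or 14.99, 29.2, 42.4, 35.9 and 25.4 CPM. WT replicates 3 and 4 stood above the other WT libraries, as they did for the 5p arm. The remaining WT libraries lay within the KO range.

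In batch 2 the level of miR-202-3p in WT was 27.7 CPM at the lowest, 30.7 at the median and 35.3 at the highest, from 49 to 77 counts. In KI it was 16.7, 17.6 and 22.2 CPM, from 32 to 52 counts. Every KI library lay below every WT library of the batch for miR-202-3p, with CPM by TMM or by library total.

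**Figure D1:**
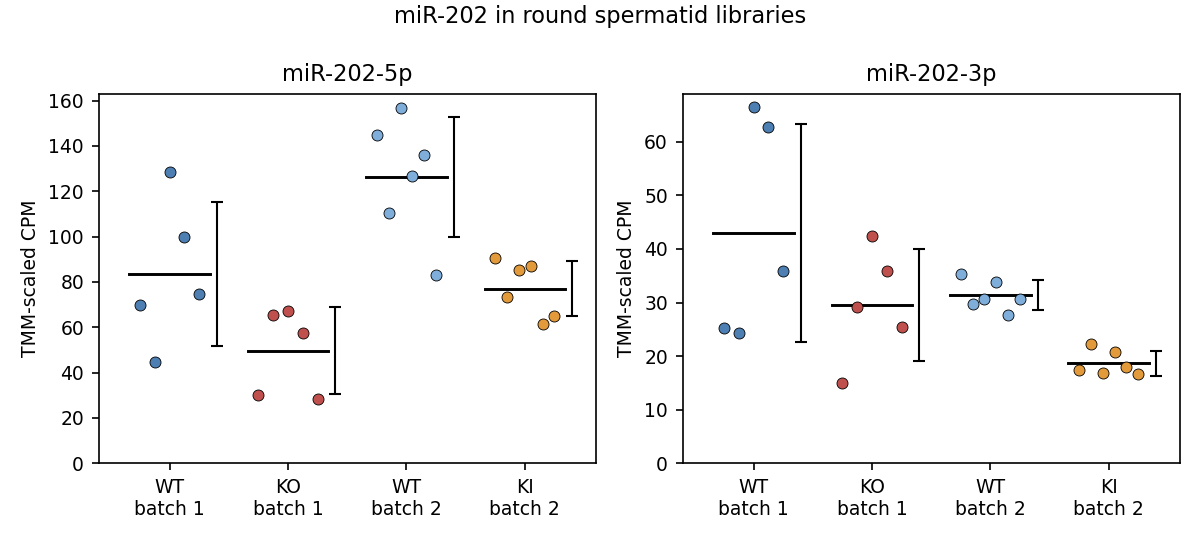
TMM-scaled CPM of miR-202-5p (left) and miR-202-3p (right) in each library (points), with the group mean (line) and SD (bar) for WT and KO of batch 1 (n = 5 each) and WT and KI of batch 2 (n = 6 each). KI libraries lie below all WT libraries of batch 2 for the 3p arm (16.7 to 22.2 against 27.7 to 35.3 CPM), while KO and WT of batch 1 overlap for both arms.

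As group means, miR-202-5p was at 83.4 ± 31.8 CPM in WT of batch 1 (SD, n = 5), 49.6 ± 19.1 in KO (SD, n = 5), 126 ± 26.4 in WT of batch 2 (SD, n = 6) and 77.0 ± 12.3 in KI (SD, n = 6). miR-202-3p was at 42.9 ± 20.4 CPM in WT of batch 1, 29.6 ± 10.4 in KO, 31.3 ± 2.78 in WT of batch 2 and 18.6 ± 2.30 in KI. In the order of its means miR-202-5p ran from WT of batch 2 to WT of batch 1, KI and KO, and the ranges of each pair of neighbours in this order overlapped. For miR-202-3p the order was WT of batch 1, WT of batch 2, KO and KI, and here too the ranges of neighbours overlapped. These orders set libraries of both batches side by side and are a description only.

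Both arms were minor miRNAs of RS. miR-202-5p took 0.00932% of the counts in WT of batch 1 and 0.0108% in WT of batch 2, and miR-202-3p took 0.00480% and 0.00266%. By mean CPM, miR-202-5p was number 198 of the 844 names detected in WT of batch 1, between miR-32-5p (84.4 ± 4.59 CPM) and miR-101a-3p (82.9 ± 25.4 CPM). In WT of batch 2 it was number 177 of 942, between miR-204-5p (129 ± 15.1 CPM) and miR-31-5p (118 ± 16.6 CPM). miR-202-3p was number 225 in WT of batch 1 and number 239 in WT of batch 2. These neighbours lie closer to the arms than the replicate SD, so the ranks are approximate. In the mutants both arms stood lower, at numbers 220 and 250 of 832 in KO and 195 and 276 of 962 in KI.

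The comparison of KO with WT asks what the loss of the whole protein changes. Neither arm of miR-202 passed the threshold in KO in edgeR, although both were lower on average. miR-202-5p had a log2 fold change of -0.71 (SE 0.32, 95% interval -1.39 to -0.02, n = 5 each), with an adjusted p of 0.104 in edgeR's quasi-likelihood test against a threshold of 0.1. miR-202-3p had a log2 fold change of -0.52 (SE 0.35, 95% interval -1.28 to 0.24), with an adjusted p of 0.259. Leaving out single libraries moved it between -0.71 (without KO replicate 3) and -0.31 (without WT replicate 3). Among the 334 miRNAs tested for KO, 41.9% were called, 21.3% as higher and 20.7% as lower, and for 20.1% the libraries of the groups did not overlap. The count for the members was 0 of 2 by either measure.

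The call on miR-202-5p in KO hung on the fit. miR-202-5p was called with DESeq2, the tool of the study (log2 fold change -0.70, adjusted p 0.0916). One fit of all 22 libraries (-0.74, adjusted p 0.0379) and a fit without the filter on low counts (-0.76, adjusted p 0.0118) called it too. miR-202-5p was also called with a term for the replicate number, without WT replicate 2 (-0.87, adjusted p 0.0418) or without KO replicate 3 (-0.86, adjusted p 0.0932). With library size as the only scaling it was not called (-0.58, adjusted p 0.208). The SE of both arms in KO was larger than the median of 0.17 over all miRNAs tested, and only 24 miRNAs had a larger SE than miR-202-5p.

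The comparison of KI with WT asks what changes in mice that carry the mutant human GRTH gene and lack the phosphorylated form. Both arms of miR-202 fell in KI by similar amounts. miR-202-5p had a log2 fold change of -0.70 (SE 0.15, 95% interval -1.02 to -0.37, n = 6 each), or 0.617 of the WT level, with an adjusted p of 0.00393 in edgeR's quasi-likelihood test. miR-202-3p had a log2 fold change of -0.73 (SE 0.12, 95% interval -0.98 to -0.47), or 0.604 of the WT level, with an adjusted p of 5.6e-04.

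Of the 387 miRNAs tested for KI, 38.0% were called, 18.1% as higher and 19.9% as lower, and both members were among the lower ones. Groups without overlap between KI and WT libraries were found for 12.4% of the miRNAs tested, which include miR-202-3p but not miR-202-5p. By log2 fold change only 9 of the 387 miRNAs lay below miR-202-3p and 10 below miR-202-5p. In KO, 12 of 334 lay below miR-202-5p and 26 below miR-202-3p. The median log2 fold change over all miRNAs was 0.01 in KO and 0.00 in KI.

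**Figure D2:**
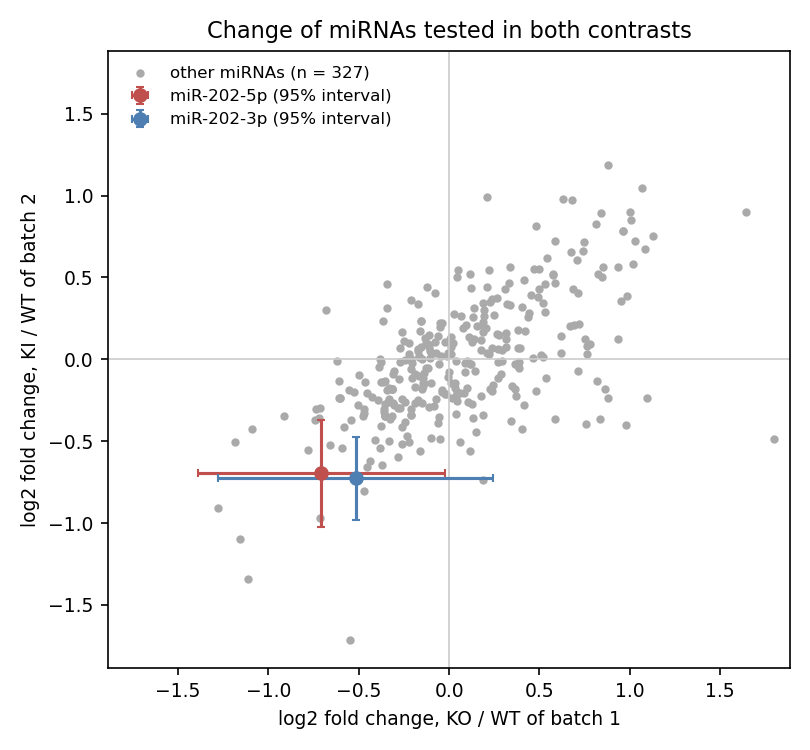
Log2 fold change in KO against WT of batch 1 (horizontal) and in KI against WT of batch 2 (vertical) for the 329 miRNAs tested in both, with the 95% intervals of miR-202-5p (red) and miR-202-3p (blue). Both arms lie at about -0.7 in KI, and their intervals are wider along the KO axis, where that of the 3p arm crosses 0.

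The KO effect and the KI effect on miR-202 were compared in one fit of the 4 groups. The difference, KO minus KI, was -0.03 for miR-202-5p (SE 0.33, 95% interval -0.71 to 0.65, adjusted p 0.972 in edgeR) and 0.20 for miR-202-3p (SE 0.34, 95% interval -0.50 to 0.90, adjusted p 0.804). These intervals leave room for a difference of up to about the size of the KI effect itself in either direction. Over all 421 miRNAs tested, 0.0% were called in this comparison. A p under 0.05 before adjustment was found for 67 miRNAs, and DESeq2 called 0. Without KI replicate 2 the count was 26, with a term for the replicate number it was 25, and without WT replicate 1 of batch 2 it was 1.

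The change of the mean in KI was larger than the replicate SD for both arms, though libraries of KI and WT overlapped for miR-202-5p. In batch 1 the spread between replicates was wide. The coefficient of variation (CV) of miR-202-5p was 38.1% in WT of batch 1 and 38.5% in KO, where counting error alone gives 10.4% and 15.1%. In batch 2 it was 20.9% in WT and 15.95% in KI, against 5.99% and 7.43% from counting. For miR-202-3p the CV was 47.4% in WT of batch 1 and 35.2% in KO, against 14.5% and 19.8% from counting. In batch 2 miR-202-3p varied by 8.88% in WT and 12.4% in KI, no more than the 12.1% and 15.3% that counting error gives at this depth.

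The arms rose and fell together across the libraries of batch 1. With each library taken relative to the mean of its own group, log2 CPM of the arms had a Pearson's r of 0.848 (permutation p 0.00234, adjusted 0.00468 over both batches, n = 10) and a Spearman's rho of 0.879 (permutation p 0.00225, adjusted 0.0045). Without the 2 libraries farthest from the median of miR-202-5p, KO replicate 5 and WT replicate 2, r was 0.914. In batch 2 no relation was detected, with r of 0.14 (permutation p 0.659, n = 12) and rho of 0.16 (permutation p 0.63), and with r of 0.092 without KI replicate 5 and WT replicate 6. The arms share the total and the scaling of each library, and in batch 2 the 3p arm did not vary beyond counting error. These relations were examined after the levels had been seen.

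**Figure D3:**
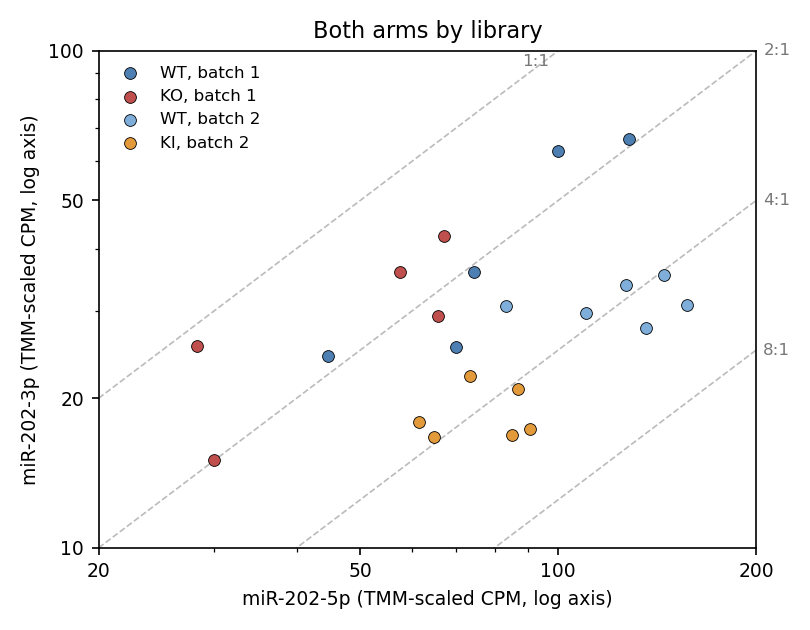
TMM-scaled CPM of miR-202-5p (horizontal, log axis) and miR-202-3p (vertical, log axis), with 1 point for each of the 22 libraries coloured by group, and dashed lines of equal 5p to 3p ratio labelled with that ratio. Libraries of batch 1 spread along the ratio lines, and those of batch 2 lie at higher ratios on average, with the lowest of them just below the highest of batch 1, and with KI shifted down and left of WT.

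The 5p arm was the more abundant arm in all 22 libraries. Its share of miR-202 counts was 66.6% ± 4.42 in WT of batch 1 (SD, n = 5), 62.2% ± 6.35 in KO (SD, n = 5), 79.6% ± 3.82 in WT of batch 2 (SD, n = 6) and 80.3% ± 2.99 in KI (SD, n = 6). The lowest share was in KO replicate 5, at 52.6% (95% Wilson interval 37.3 to 67.5), and the highest in KI replicate 1, at 83.9% (79.4 to 87.7). As mean ratios of 5p to 3p counts, these groups were at 2.04, 1.71, 4.05 and 4.18. Intervals take reads as independent, so they cover counting error at most and are too narrow where reads are not independent molecules. A ratio of reads of 2 sequences also holds any difference in how the library kit captures them, so a ratio is compared here between libraries and not read as a ratio of molecules.

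The arm ratio did not differ detectably by genotype within a batch. As log2 of the ratio, with 0.5 added to each count, KO was at 0.72 ± 0.38 and WT of batch 1 at 0.99 ± 0.29, a difference of -0.27 (two-sided exact permutation p 0.262, adjusted 0.393 over 3 tests). KI was at 2.03 ± 0.28 and WT of batch 2 at 1.98 ± 0.33, a difference of 0.05 (two-sided exact permutation p 0.797, adjusted 0.797). Leaving out single libraries moved the KO difference between -0.38 and -0.13 and the KI difference between -0.061 and 0.12. For 81 hairpins with both arms at a mean of at least 10 counts in WT of each batch, the arm ratios of the groups did not overlap for 6.17% in KO and 7.41% in KI. miR-202 was not among them, and by the size of the difference it was number 36 in KO and number 73 in KI.

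Between the batches the arm ratio of WT libraries did differ. It was higher in batch 2 by 0.98 on the log2 scale, a ratio 1.98 times that of batch 1. The two-sided exact permutation p was 0.00866 (adjusted 0.026 over 3 tests), and these group sizes allow few smaller values. The ranges met at one point, since WT replicate 6 of batch 2 was at 1.43 and WT replicate 1 of batch 1 at 1.45. The arms moved in opposite directions. miR-202-5p was higher in WT of batch 2, with a log2 fold change of 0.55 (SE 0.22, adjusted p 0.0524 in edgeR), and miR-202-3p was lower, with -0.51 (SE 0.23, adjusted p 0.0749). Both calls hung on single libraries. That on miR-202-5p was lost without any one of WT replicates 1 and 2 of batch 1 or replicates 1, 3, 4 and 5 of batch 2, and with library size as the only scaling (0.21, adjusted p 0.492). That on miR-202-3p was lost without replicate 3 or 4 of batch 1 or replicate 5 or 6 of batch 2, and without the filter on low counts (-0.43, adjusted p 0.11). With library size as the only scaling it was -0.86 (adjusted p 0.00949). The adjusted p of the arm ratio reached 0.0571 without replicate 2, 3, 4 or 5 of batch 1.

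A batch difference of this kind was common in the table. Among 383 miRNAs tested between WT of the batches, 56.7% were called and 37.9% had libraries that did not overlap. Of the 81 hairpins, the arm ratios of 43.2% did not overlap between the WT groups, and 21 differed by more than 1 in size on the log2 scale, where the median size was 0.56. By size the shift of miR-202 was number 22 of 81. Libraries of the batches also differed in depth, and what else differed between the WT libraries of the batches cannot be told apart from the batch, so KO and KI are tested only against WT of their own batch.

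**Figure D4:**
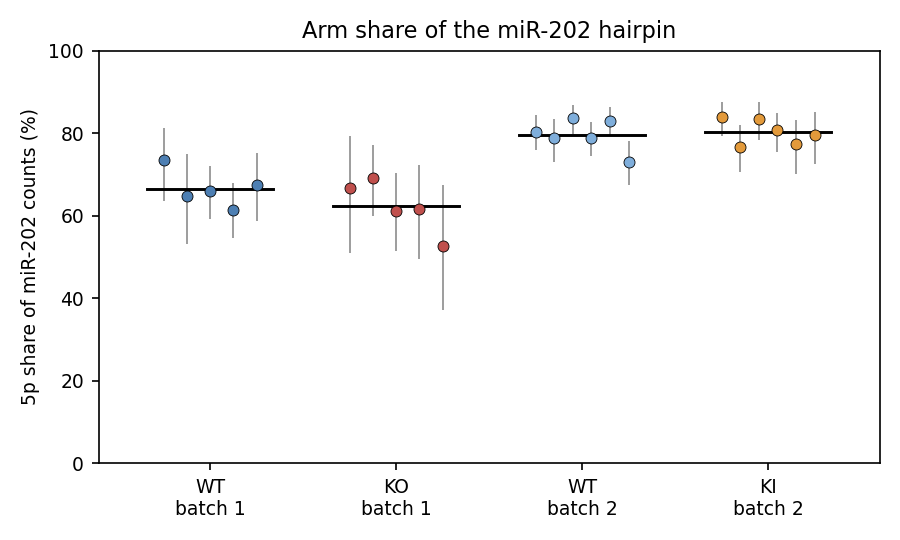
Share of miR-202 counts on the 5p arm, in percent, for each library (points, with 95% Wilson intervals) and each group (line, mean). Shares of batch 1 lie from 52.6% to 73.4% and those of batch 2 from 73.0% to 83.9%, with WT and mutant libraries of a batch intermixed.

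The let-7 miRNAs, widely expressed regulators of cell growth and differentiation, are the ones whose seed comes nearest to that of miR-202-3p. They were far more abundant in RS. The 11 names of the list summed to 50973 to 62141 CPM in batch 1 and to 48181 to 54880 CPM in batch 2, and let-7a-5p, the highest, was at 35283 CPM in WT of batch 1. let-7j, which alone has the whole seed of miR-202-3p, had 14 counts over all 22 libraries, and let-7k had 0. The sequences of let-7 names differ by few bases, so reads may be split among them.

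Of 9 let-7 names tested in KO, 1 rose and 1 fell, with a median log2 fold change of 0.11, where 41.9% of all miRNAs tested were called and the median was 0.01. In KI 1 rose and 2 fell, with a median of -0.02, where 38.0% of all were called and the median was 0.00. let-7a-5p fell in both mutants, by 0.14 in KO (adjusted p 0.0731 in edgeR) and by 0.15 in KI (adjusted p 0.022) on the log2 scale. In KO let-7c-5p rose by 0.53 (adjusted p 0.0892). In KI let-7i-5p rose by 0.14 (adjusted p 0.07) and let-7e-5p fell by 0.22 (adjusted p 0.0832). The upper 95% bounds of miR-202-5p and miR-202-3p in KI, -0.37 and -0.47, lay below the log2 fold change of every let-7 name tested, the lowest of which was -0.22, though not below all of their intervals.

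**Figure D5:**
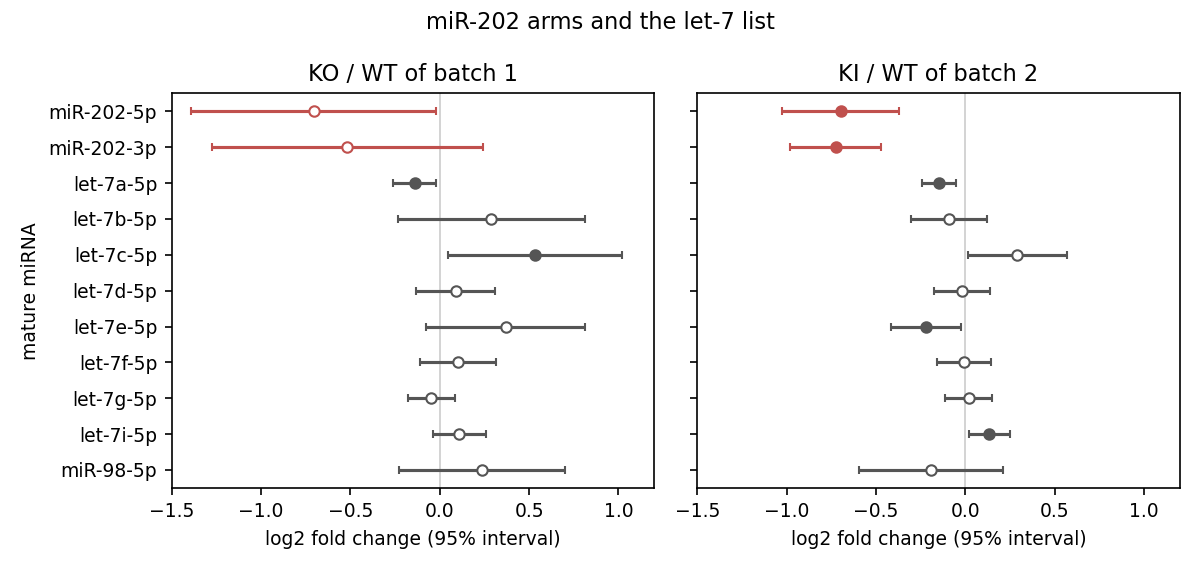
Log2 fold change with its 95% interval for miR-202-5p and miR-202-3p (red) and the 9 tested names of the let-7 list (grey), in KO (left) and in KI (right), with filled points for an adjusted p under 0.1. In KI both arms lie near -0.7, and let-7 names lie between -0.22 and 0.29.

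The miRNAs whose pattern was most like that of each arm were found from log2(CPM + 1) relative to WT of the same batch, by the root mean square (RMS) difference over all 22 libraries, among miRNAs with at least 10 CPM in each batch. For miR-202-5p these were miR-34a-5p (RMS difference 0.254), miR-100-5p (0.342), miR-203-3p (0.365), miR-361-3p (0.394) and miR-880-3p (0.407), where the median over all was 0.690. For miR-202-3p they were miR-34a-5p (0.267), miR-203-3p (0.280), miR-361-3p (0.357), miR-470-5p (0.371) and miR-342-3p (0.389), with a median of 0.633. The arms were 0.314 from each other, so miR-34a-5p was nearer to each arm than the other arm was. RMS differences hold counting error, which is larger for arms of low counts than for miR-34a-5p. A closer relation to miR-34a-5p than between the arms therefore does not follow. miR-34a-5p, known as a target of p53, was at 3204 CPM in WT of batch 1 and 5607 CPM in WT of batch 2. Its log2 fold change was -0.80 in KI (adjusted p 7.3e-05 in edgeR) and -0.47 in KO (adjusted p 0.13, not called). miR-34a-5p was chosen for its nearness over these same libraries, so fold changes like those of the arms follow from the choice.

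miRNAs of lists written for other cell types moved in the same libraries. Whether RS themselves hold these miRNAs was not tested. The list of 10 X-linked testis miRNAs found in spermatocytes and Sertoli cells summed to 33924 to 37673 CPM in WT of batch 1 against 26862 to 29389 CPM in KO, and to 32007 to 35825 CPM in WT of batch 2 against 24442 to 26483 CPM in KI. These groups did not overlap. Of its 10 members 8 fell in KO and 9 in KI, with medians of -0.31 and -0.38 on the log2 scale, and 0 rose. Over all miRNAs tested, 20.7% fell in KO and 19.9% in KI. This list and the others were written with earlier results of these data known, so these counts are a description only. The list holds miR-880-3p and miR-470-5p, which are among the miRNAs nearest to the arms.

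Of 6 blood and immune miRNAs tested, 3 rose in KO and 5 in KI, and of 5 tested for smooth muscle, vessel and stroma, 4 rose in each, where 21.3% of all miRNAs tested rose in KO and 18.1% in KI. The summed levels of both lists overlapped between mutant and WT libraries in both batches. Defining members of these lists were detected, such as miR-223-3p of myeloid cells at 67.2 CPM in WT of batch 1 and miR-143-3p of smooth muscle at 27.3 CPM. Both rose in KO and in KI. The most abundant members there were miR-142a-3p (4203 CPM) and miR-199a-3p (1050 CPM). miR-199a-3p rose in both mutants, and miR-142a-3p rose in KI but was not called in KO (log2 fold change 0.11, adjusted p 0.391 in edgeR). miR-126a-3p of the stroma list was called in neither (0.38 in KO, -0.04 in KI). Of the erythroid miRNAs, miR-451a was at 51.4 CPM in WT of batch 1 and 33.9 CPM in WT of batch 2, and miR-144-3p had 1 count in all. miR-451a was called in neither mutant (log2 fold change -0.25 in KO and 0.11 in KI). The striated muscle list summed to 8.10 to 758 CPM, with miR-206-3p at 0. In KO its member miR-1a-3p rose by 1.79 on the log2 scale (adjusted p 0.0417 in edgeR), and in KI miR-1a-3p and miR-133a-3p were at -0.49 each, neither of them called. The KO libraries were uneven, with miR-1a-3p at 42.7 ± 47.1 CPM (SD). The list summed to 146 CPM in KO replicate 1 and to at most 35.7 CPM in the other KO libraries. For the post-meiotic germ cell list, 1 of 6 tested rose and 2 fell in KO, and 1 fell in KI.

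The part of these cell types in the fall of miR-202 was not tested. The paper reports a high purity of the isolated RS, checked by DAPI staining, and the share of other cells was not measured here. Where a library holds other cells too, fewer cells that hold miR-202 and less miR-202 per cell cannot be told apart. Within WT of batch 1 the 2 libraries with the highest miR-202, replicates 3 and 4, were at 37673 and 35741 CPM for the X-linked list, where the other 3 were at 33924, 35008 and 37098 CPM. For the stroma list they were at 1862 and 2135 CPM, where the other 3 were at 1683, 773 and 1664 CPM. Sums of the post-meiotic germ cell list were 218820 and 195300 CPM, against 224390, 238700 and 230780 CPM in the other 3. Those of the blood list were 5177 and 4112 CPM, against 4996, 4991 and 4623 CPM. These 2 libraries were picked by their miR-202 levels, and a relation to any list was not tested.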

How the data were processed

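Small RNA of isolated RS was sequenced in 22 libraries. The deposited table holds counts, whole numbers of reads per mature miRNA. The authors trimmed adapters (cutadapt 3.4), aligned to GRCm38 with Bowtie2 2.4.2, allowing many alignments per read, and counted strand-specifically with featureCounts (Subread 2.0.1). Each miR-202 arm has 1 locus in the table.

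KO and KI were each fitted with WT of their batch, WT between batches in a further fit, and KO minus KI over all 4 groups. Each fit took all miRNAs passing the filter (filterByExpr), with edgeR 4.0.16 (R 4.3.3), TMM and the quasi-likelihood F-test. Calls were made where the p adjusted by Benjamini-Hochberg was below 0.1, which is the threshold of the study but with another tool. Printed CPM are TMM-scaled over 22 libraries and are not the basis of the fold changes. Arm ratios were compared by exact permutation tests with a threshold of 0.05. DESeq2, the tool of the study, was run as an alternative (version 1.42.0), as were other settings. Scripts were tested on simulated data. Groups and batches follow the sample labels. The paper's methods number the batches the other way, with KI in the first and KO in the second. The labels do not say what a replicate number marks, and same-numbered libraries deviated together in some pairs only. The main fits used no block, and a replicate block was an alternative.

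Named were both arms, their neighbours in rank in WT, the 5 miRNAs nearest to each arm, and at most 4 members of each list, from its most abundant and its called members. Members and lists were chosen with earlier results of these data known. miR-126a-3p, miR-143-3p, miR-144-3p, miR-133a-3p, miR-206-3p, miR-223-3p and miR-451a were named after their values were seen. The mRNA libraries were not analysed here, and the level of GRTH, an mRNA, was not checked.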

Additional observations from a re-analysis of the deposited data

How the results depend on the processing

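Both arms stayed called as lower in KI under all 6 alternatives and without any single library. For miR-202-5p the log2 fold change then ranged from -0.78 to -0.61 (adjusted p at most 0.0154) and for miR-202-3p from -0.79 to -0.64 (adjusted p at most 0.0154). No alternative run called miR-202-3p in KO. For miR-202-5p in KO, leaving out single libraries gave -0.87 to -0.50, with a call in 2 of 10 cases, and a call was gained with DESeq2 (-0.70), without the filter (-0.76), in one fit of all libraries (-0.74) and with the replicate block (-0.70, adjusted p 0.0724). The replicate block, a term for the replicate number, changed no other call on an arm. Its count of calls was 124 in KO, 165 in KI and 25 for the KO effect minus the KI effect, and neither arm was among the 25. Same-numbered libraries correlated best with each other in 1 of 5 KO and 3 of 6 KI pairs, and the labels do not say what a number marks.

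Between WT of the batches, the call on miR-202-5p was lost with library size as the only scaling (0.21, adjusted p 0.492) and in 6 of 11 cases with 1 library left out (0.40 to 0.77). That on miR-202-3p was lost without the filter (-0.43, adjusted p 0.11) and in 4 of 11 cases (-0.65 to -0.29). The arm ratio between WT batches ranged from 0.90 to 1.10 without single libraries, with an adjusted p of at most 0.0571, over 0.05 without replicate 2, 3, 4 or 5 of batch 1. The difference of the KO and KI effects on miR-202-5p, near 0, changed sign with library size only (0.025) and ranged from -0.21 to 0.19 without single libraries. The arm ratio in KI ranged from -0.061 to 0.12. The count called for KO minus KI ranged from 0 to 26 without single libraries, with 26 without KI replicate 2 and 1 without WT replicate 1 of batch 2. The causes were not tested.

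With library size only, the median of all log2 fold changes moved to 0.13 in KO, 0.09 in KI and -0.34 between WT batches, and the calls split into 101 higher and 44 lower, 96 and 53, and 47 and 193, against 71 and 69, 70 and 77, and 103 and 114 with TMM. The sign of both arms in KO and KI, and between WT batches, was the same under each scaling. With a minimum of 50 CPM, 4 of the 5 nearest miRNAs were kept for each arm. Depth limits the 3p arm most, with 13 to 38 counts in KO libraries. No library passed Dixon's limit for an outlier in the 12 groups of values screened.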
